A study of Mus musculus with 10 samples.

Results

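The genes described here are the classical axon guidance ligands and receptors. They were the probe sets that the platform annotation gives 1 gene symbol among the semaphorins, plexins, neuropilins 1 and 2, Slits and Robos 1 to 3, netrins 1, 3 and 4, the Unc5 receptors, and the ephrins with their EphA and EphB receptors. In all 70 probe sets matched, and reading each gene from its probe set of highest mean left 65 genes of the 19938 measured, 34 ligands and 31 receptors. Ephb2, a receptor of the EphB family, was not analysed here. The samples were ear regions of mouse embryos, taken 12.5 days into development: the otic vesicle (the sac from which the inner ear forms) with the mesenchyme around it (periotic tissue), dissected out and pooled from the left and right side of each embryo, with 1 embryo per array. The 5 mutants were T-Cre conditional Tbx1 knockouts, called Mest-KO in the study, and the 5 controls were T-Cre conditional Tbx1 heterozygotes, so both groups carried T-Cre, and the controls are heterozygotes and not wild type. The labels do not spell out the alleles further. T-Cre is known to recombine in early mesoderm, and the title of the study names the knockout as mesodermal, so the otic epithelium and nerve cells are not the cells it was made to target. The labels call the samples biological replicates, and the comparison asks whether loss of the T-box transcription factor Tbx1 from the mesoderm goes with a difference in guidance cues.

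Guidance ligands steer growing nerve fibres and migrating cells by attraction or repulsion. Secreted class 3 semaphorins bind neuropilins that signal through plexins, Slits act on Robo receptors, netrins act on Dcc and Unc5 receptors, and ephrins, which stay bound to the cell surface, act on Eph receptors of neighbouring cells. In the inner ear these systems are known for guiding the fibres of the cochleovestibular ganglion, and netrin 1 for the fusion of the walls from which the semicircular canals are cut. Mesenchyme, epithelium, blood vessels and nerve cells all use members of these families. In such bulk tissue fewer cells of a type and less RNA per cell cannot be told apart.

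Correlations between any pair of arrays ran from 0.985 to 0.993. Tbx1 (probe set 10438347) had a log2 signal of 7.83 ± 0.36 in mutants and 8.71 ± 0.31 in controls (SD, n = 5 each, exact permutation p = 0.0159), with a limma adjusted p over all probe sets of 0.451. Its groups overlapped, as mutant 1 (8.40) lay above control 4 (8.23). All 9 measured markers of the otic epithelium and all 10 of the periotic mesenchyme read above background, taken here as the highest value, 4.36, that Y-linked probe sets gave in female embryos. Cartilage markers read lower in mutants in 12 of 12 genes and muscle markers in 8 of 8. None of them was called by limma, which called 0.01% of all genes. At a limma unadjusted p under 0.05 there were 5 cartilage markers (41.7%) and 3 muscle markers (37.5%), against 7.82% of all genes. The groups did not overlap for Col2a1, with a log2 difference of -0.53. The part of tissue makeup in the values below was not tested. Mutant 5 stood apart from the other arrays. On the first principal component, which held 30.3% of the variance, mutant 5 was at 35.3 and the other 9 arrays lay between -14.6 and 5.41. The immediate early gene Fos separated the arrays numbered 1 to 3 (8.82 to 9.08) from those numbered 4 and 5 (5.49 to 5.91) in both groups, and differences within each of these sets of arrays are given below where they bear on a result.

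All 65 guidance genes read above background on all 10 arrays, the lowest value being 4.81 for Epha6 in mutant 4. This background is a low bar, below the array medians of 6.19 to 6.27. A fit limited to probe sets above it kept 17181 of the 19938 genes. None of the 65 guidance genes passed the threshold of the comparison between mutants and controls. Limma with Benjamini-Hochberg adjustment over all 21789 probe sets gave adjusted p-values from 0.583 (Ntn3) to 0.996 (Plxnb1), so 0 of 65 members were called, against a background of 0.01% of all genes (2 of 19938). No member separated the groups: in 0 of 65 did all mutants lie on one side of all controls, while 1.83% of all genes did so (1.27% higher and 0.552% lower in mutants). At an unadjusted p under 0.05 there were 6 members, 2 with a higher signal in mutants and 4 with a lower one. That is 9.23% of the members, close to the 7.82% of all genes, which split into 4.7% higher and 3.11% lower in mutants. With the replicate number as a block 3 of the 6 (Sema6d, Robo1 and Ntn3) were at an unadjusted p under 0.05, which is 4.62% of the members against 9.74% of all genes. With sex as a term there were 3 as well, Sema6b, Robo1 and Ntn3, against 7.4% of all genes. Within the arrays numbered 1 to 3 there were 9 members (13.8%, against 6.16% of all genes), and within those numbered 4 and 5 there was 1 (1.54%, against 4.05%).

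The signs were even, and many differences were small enough to turn with the arrays used. Of the 65 signs, 15 turned without mutant 5, 19 within the arrays numbered 1 to 3 and 11 within those numbered 4 and 5. Of the 65 differences, 32 were positive and 33 negative, with a median of -0.00439 on the log2 scale, and the median over all genes was -0.00210. The median was -0.04 for ligands, of which 15 of 34 were higher in mutants, and 0.01 for receptors, of which 17 of 31 were higher. The median size of a difference, without its sign, was 0.09 for members and 0.07 for all genes. The intervals show how large a difference these arrays leave room for. In 61 of 65 members the 95% interval of the difference lay wholly within 0.5 of 0 on the log2 scale, that is, within 1.41-fold in either direction, and so it did in 94.2% of all genes. The other members were Slit1, Robo3, Epha5 and Ephb1, whose spread between embryos was wide.

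**Figure D1:**
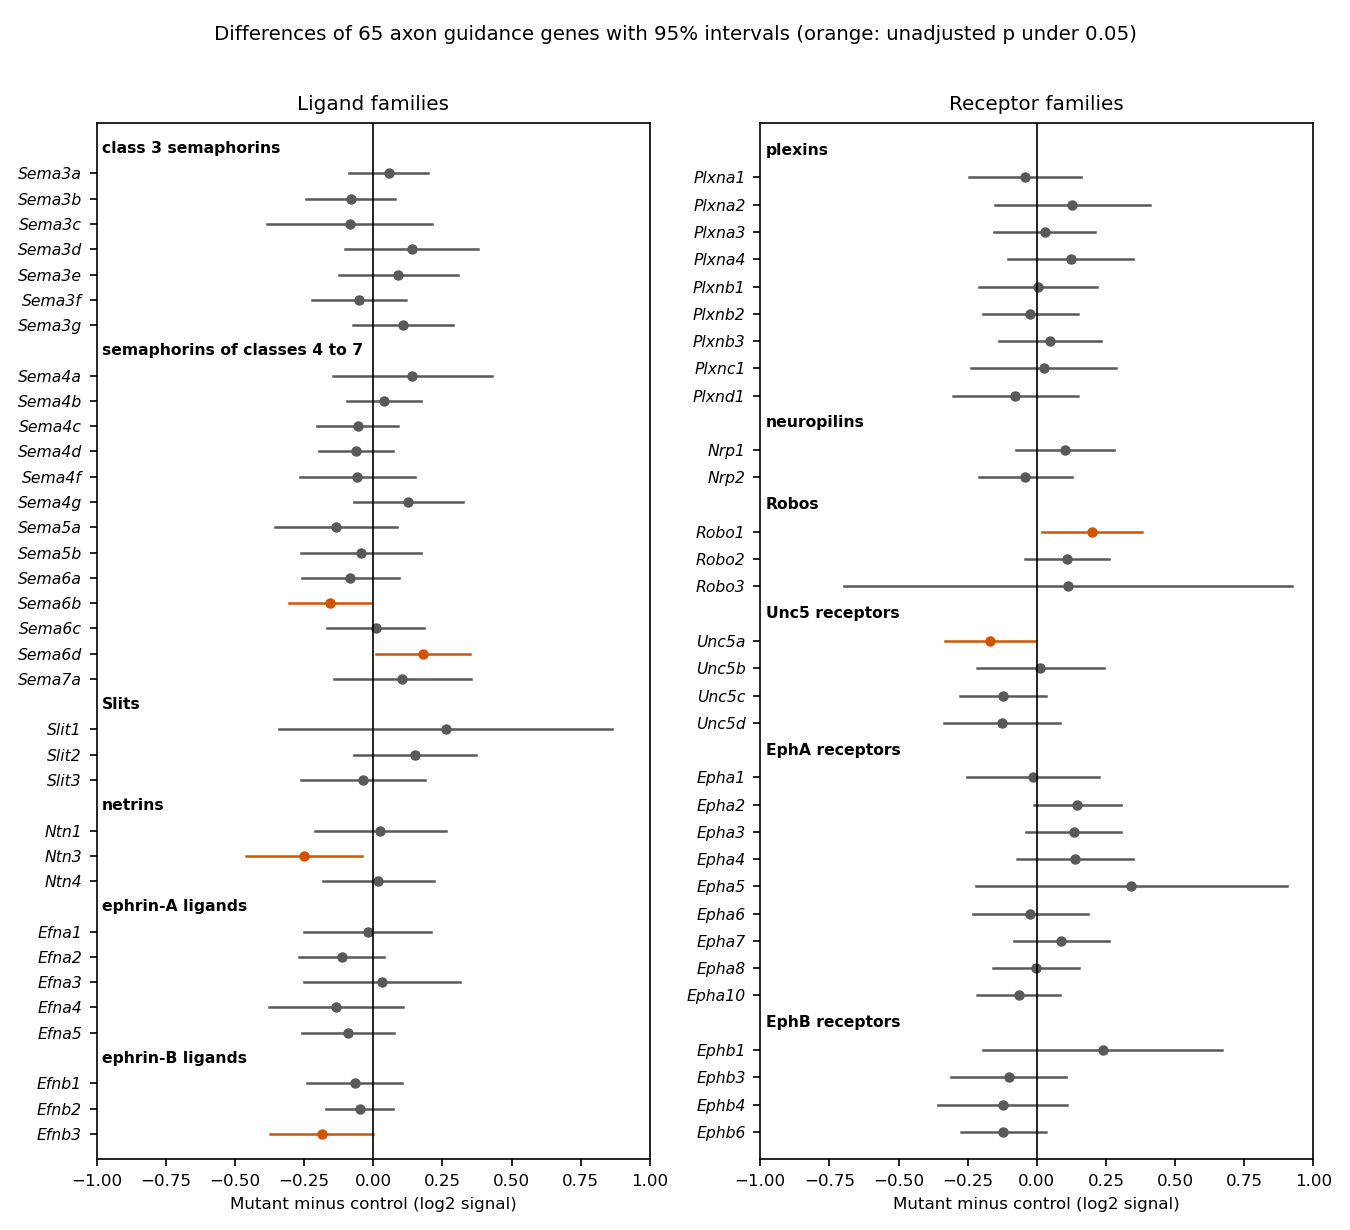
Mutant minus control difference of log2 signal (x axis) for each of the 65 genes (y axis, by family, 34 ligands at left and 31 receptors at right), with the 95% interval from limma as a line and the 6 members at an unadjusted p under 0.05 in orange. The points lie between -0.25 (Ntn3) and 0.34 (Epha5), and the widest intervals are those of Slit1, Robo3, Epha5 and Ephb1.

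Among the class 3 semaphorins 4 of 7 genes read higher in mutants and 3 lower, and the median log2 difference was 0.06. Sema3a, a secreted repellent for sensory fibres that binds neuropilin 1, had a log2 signal of 10.18, 10.25, 10.26, 10.39 and 10.07 in mutants 1 to 5, against 10.09, 10.28, 10.09, 10.17 and 10.24 in controls 1 to 5. Mutant 4 lay above all controls and mutant 5 below them, with a log2 difference of 0.06 ± 0.07 (SE) and a limma adjusted p of 0.842. Sema3d had the largest difference of this class, 0.14 ± 0.11 (SE), with values of 7.91 to 8.52 in mutants (median 8.32) and 7.88 to 8.21 in controls (median 8.19). In 3 of the 5 mutants Sema3d lay above the highest control, while mutant 5 had the lowest value of its group. Sema3e, which signals through plexin D1 in blood vessels without a neuropilin, read 6.94 ± 0.19 in mutants and 6.85 ± 0.13 in controls (SD, n = 5 each). Sema3f, a ligand of neuropilin 2, read 9.55 ± 0.18 in mutants and 9.60 ± 0.05 in controls (SD, n = 5 each). Its mutants spread more widely than its controls, with 2 mutants above the highest control and 3 below the lowest. The log2 differences of Sema3b, Sema3c and Sema3g were -0.08, -0.09 and 0.11, with adjusted p-values of 0.749 to 0.892.

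The semaphorins of classes 4 to 7, most of which are membrane proteins, held 2 of the 6 members at an unadjusted p under 0.05, in opposite directions. Sema6d is a transmembrane semaphorin that acts through A-type plexins. Its log2 signal was 8.496, 8.475, 8.506, 8.505 and 8.587 in mutants 1 to 5, against 8.092, 8.228, 8.403, 8.481 and 8.465 in controls 1 to 5. The mutants lay close together, and 4 of them were above the highest control, while mutant 2 fell just under it. The log2 difference was 0.18 ± 0.08 (SE), or 113% of the control signal (95% interval 101 to 128%), with a limma adjusted p of 0.602 and an exact permutation p of 0.0159 for this gene alone. Sema6d was the gene of this family with the largest difference. With each array centred on its median its groups no longer overlapped, which was so for 1.66% of all genes under that scaling.

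Sema6b, a relative of Sema6d that also binds A-type plexins, had a log2 signal of 7.58, 7.53, 7.48, 7.67 and 7.71 in mutants 1 to 5, against 7.70, 7.77, 7.76, 7.85 and 7.68 in controls 1 to 5. In 4 of the 5 mutants it lay below the lowest control, and mutant 5 was the exception. The log2 difference was -0.16 ± 0.07 (SE), with a limma adjusted p of 0.602 and an exact permutation p of 0.0317. A further probe set with the symbol Sema6b held identical values on every array, so the 2 are 1 measurement. Over the 13 genes of these classes 6 were higher and 7 lower, with a median log2 difference of -0.04. The 11 others, Sema4a, Sema4b, Sema4c, Sema4d, Sema4f, Sema4g, Sema5a, Sema5b, Sema6a, Sema6c and Sema7a, had differences between -0.14 (Sema5a) and 0.14 (Sema4a). Without mutant 5 these became -0.0657 for Sema5a and 0.0134 for Sema4a.

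Plexins, the signalling receptors of the semaphorins, showed little difference in any class over all arrays. Of 9 plexins 6 were higher and 3 lower, and the median log2 difference was 0.02. Plxna1, a co-receptor of neuropilins, read 9.68 ± 0.12 in mutants and 9.73 ± 0.20 in controls (SD, n = 5 each). The largest plexin difference was that of Plxna2, at 0.13 ± 0.13 (SE). Plxna2 read 8.67 to 9.43 in mutants (median 8.94) and 8.56 to 9.05 in controls (median 8.94), and without mutant 5, its highest array, the difference was 0.02. Plxnb1, Plxnb2 and Plxnd1, the last of which is prominent in endothelium, had log2 differences of 0.00321, -0.02 and -0.08. Without mutant 5 all of these turned, to -0.0187 for Plxnb1, 0.0242 for Plxnb2 and 0.0211 for Plxnd1. The range over Plxna3, Plxna4, Plxnb3 and Plxnc1 was 0.02 to 0.12. That of Plxna4 was 0.29 within the arrays numbered 1 to 3 and -0.13 within those numbered 4 and 5. Signs also turned for Plxna3 within the arrays numbered 4 and 5 (-0.0748). Within those numbered 1 to 3 they turned for Plxnb3 (-0.0656) and Plxnc1 (-0.0844).

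Of the neuropilins, Nrp1 read higher in mutants and Nrp2 lower, neither past the threshold. Nrp1, which binds Sema3a and also vascular growth factor, had a log2 signal of 9.68, 9.66, 9.61, 9.57 and 9.30 in mutants 1 to 5, against 9.42, 9.32, 9.42, 9.54 and 9.63 in controls 1 to 5. Its difference was 0.10 ± 0.08 (SE) over all arrays, 0.27 within the arrays numbered 1 to 3 and -0.15 within those numbered 4 and 5, so the sign was opposite in these sets of arrays. Without mutant 5 the Nrp1 difference was 0.17 (limma adjusted p 0.638). Nrp2 read 9.95 ± 0.03 in mutants and 9.99 ± 0.18 in controls (SD, n = 5 each), and every mutant lay inside the range of the controls.

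The Robo receptors all had positive differences over all arrays. That of Robo3 (0.11) turned to -0.26 without mutant 5 and to -0.0592 within the arrays numbered 1 to 3. Robo1, a receptor for Slits that also acts in cell migration, had a log2 signal of 10.62, 10.70, 10.60, 10.77 and 10.76 in mutants 1 to 5, against 10.61, 10.19, 10.42, 10.52 and 10.70 in controls 1 to 5. The mutants were tight and 3 of them lay above the highest control, whereas control 2 was low. The log2 difference of Robo1 was 0.20 ± 0.08 (SE), or 115% of the control signal (95% interval 101 to 130%), with a limma adjusted p of 0.589 and an exact permutation p of 0.0556. It was 0.23 within the arrays numbered 1 to 3 and 0.15 within those numbered 4 and 5. In each of the 5 pairs of arrays with a shared number the mutant read higher, though by only 0.0099 in pair 1 and 0.0593 in pair 5. What a shared number stands for is not stated in the labels. Without control 2 the Robo1 difference was 0.13. Robo2, a second Slit receptor and the neighbour of Robo1 among protein-coding genes, read 9.32 ± 0.13 in mutants and 9.21 ± 0.07 in controls (SD, n = 5 each), with mutant 5 highest of all arrays. Its difference was 0.11 ± 0.07 (SE), and 0.05 without mutant 5.

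The Slits, the secreted ligands of these receptors, had log2 differences of 0.26 (Slit1), 0.15 (Slit2) and -0.04 (Slit3). Slit2 had a log2 signal of 9.46, 9.49, 9.66, 9.91 and 9.84 in mutants 1 to 5, against 9.48, 9.59, 9.26, 9.56 and 9.72 in controls 1 to 5. Mutants 4 and 5 were above all controls and the other mutants lay within the control range (limma adjusted p 0.715). Slit1 and Robo3 belong to the group of widely spread genes described below.

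Ntn3 had the smallest p-value of all members and the most negative difference. Ntn3 encodes netrin 3, a secreted relative of netrin 1. Its log2 signal was 8.41, 8.61, 8.17, 8.44 and 8.05 in mutants 1 to 5, against 8.47, 8.67, 8.62, 8.63 and 8.55 in controls 1 to 5. In 4 of the 5 mutants Ntn3 lay below the lowest control, and mutants 3 and 5 were the lowest arrays. The log2 difference was -0.25 ± 0.10 (SE), or 84.1% of the control signal (95% interval 72.6 to 97.3%), with a limma adjusted p of 0.583 and an exact permutation p of 0.0397. In each of the 5 number-matched pairs the mutant had the lower Ntn3 value, and the difference was -0.19 within the arrays numbered 1 to 3 and -0.34 within those numbered 4 and 5. Leaving out single arrays gave differences between -0.32 and -0.18. Ntn1, which is required for semicircular canal formation, read 8.32 ± 0.26 in mutants and 8.30 ± 0.10 in controls (SD, n = 5 each). The Ntn1 difference had opposite signs in the sets of arrays, -0.15 in those numbered 1 to 3 and 0.28 in those numbered 4 and 5. Ntn4 differed by 0.02.

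Of the Unc5 receptors, which mediate repulsion by netrins, 1 of 4 was higher and 3 were lower, and the median log2 difference was -0.12. Unc5a had a log2 signal of 5.998, 6.042, 5.937, 6.029 and 6.258 in mutants 1 to 5, against 6.240, 6.217, 6.216, 6.141 and 6.290 in controls 1 to 5. Mutants 1 to 4 lay below the lowest control and mutant 5 lay among the controls. The Unc5a difference was -0.17 ± 0.08 (SE), with a limma adjusted p of 0.602 and an exact permutation p of 0.0397, and it was negative in each of the 5 pairs. Unc5b, known for its part in blood vessel growth, read 7.61 ± 0.18 in mutants and 7.60 ± 0.18 in controls (SD, n = 5 each). Unc5c and Unc5d had differences of -0.12 ± 0.07 and -0.13 ± 0.10 (SE). The 2 probe sets of Unc5d gave -0.13 and 0.00976. Dcc, the attractive netrin receptor and a gene outside the set, read 6.847, 7.510, 7.9985, 8.416 and 10.015 in mutants 1 to 5, against 7.16, 6.82, 6.95, 8.75 and 7.74 in controls 1 to 5. Mutant 5 was the highest array for Dcc and control 4 the second, and the difference was 0.67 ± 0.51 (SE) with all arrays and 0.21 without mutant 5.

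**Figure D2:**
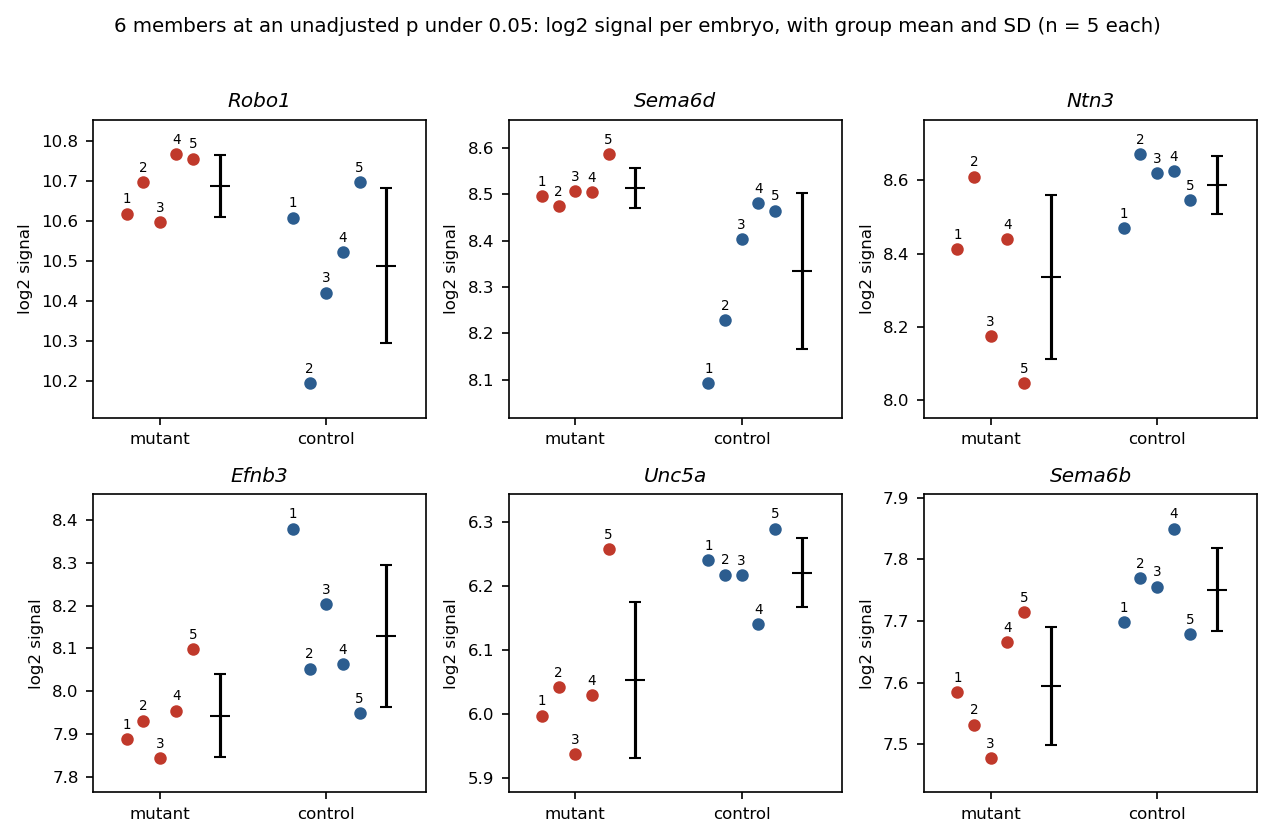
Log2 signal (y axis) of Robo1, Sema6d, Ntn3, Efnb3, Unc5a and Sema6b in each embryo, 5 mutants (red) left of 5 controls (blue), with the array number above each point and the group mean with its SD in black. The groups overlap in every panel, with 4 of the 5 mutants above all controls for Sema6d, and 4 of the 5 below all controls for Ntn3, Unc5a and Sema6b.

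Ephrin ligands had mostly negative differences, and ephrin-B ligands exclusively so. Ephrin-A ligands, which are tethered by a lipid anchor, were lower in 4 of 5 and higher in 1, with a median log2 difference of -0.09. Efna5, which has repellent roles in many developing projections, had a log2 signal of 9.889, 10.001, 9.753, 10.231 and 10.046 in mutants 1 to 5, against 10.03, 10.07, 10.11, 10.12 and 10.05 in controls 1 to 5. Its controls lay within a narrow range, and the mutants spread to both sides of it, with 1 above and 3 below. Efna4 had the largest ephrin-A difference with all arrays, -0.13 ± 0.11 (SE), and mutant 5 was its lowest array. Without mutant 5 it was -0.0531, and that of Efna2 was -0.14. Efna1, Efna3 and Efna4 lie side by side in the order of protein-coding genes. Their log2 differences were -0.02, 0.03 and -0.13, and that of Efna2 was -0.11.

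Ephrin-B ligands span the membrane and can signal back into the cell that carries them. Efnb3, known for its role at the midline of the nervous system, had a log2 signal of 7.887, 7.931, 7.844, 7.954 and 8.098 in mutants 1 to 5, against 8.380, 8.052, 8.203, 8.063 and 7.948 in controls 1 to 5. In 3 of the 5 mutants it lay below the lowest control, and control 1 was the highest array. The log2 difference of Efnb3 was -0.19 ± 0.09 (SE), with a limma adjusted p of 0.611 and an exact permutation p of 0.0714. It was -0.32 within the arrays numbered 1 to 3 and 0.02 within those numbered 4 and 5. Efnb2, a ligand known as a marker of arterial endothelium, read 10.06, 10.02, 9.89, 9.99 and 9.84 in mutants 1 to 5, against 9.97, 10.08, 10.03, 9.96 and 10.01 in controls 1 to 5. It had the smallest standard error of all members, with a difference of -0.05 ± 0.06 (SE) and an interval of -0.17 to 0.07. Efnb1, whose loss is known to disturb craniofacial bone formation, read 9.85 ± 0.16 in mutants and 9.92 ± 0.10 in controls (SD, n = 5 each).

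EphA receptors had positive differences in 5 of 9 and a median log2 difference of 0.09. Epha4, a receptor for ephrins of both classes, is known as a cue in the otic mesenchyme for bundling of spiral ganglion fibres, and there as a target of the transcription factor Pou3f4. Epha4 had a log2 signal of 9.59, 9.70, 9.75, 9.43 and 9.35 in mutants 1 to 5, against 9.32, 9.63, 9.20, 9.40 and 9.57 in controls 1 to 5. The groups overlapped, 2 mutants were above the highest control, and the log2 difference was 0.14 ± 0.10 (SE) with a limma adjusted p of 0.722. It was 0.29 within the arrays numbered 1 to 3 and -0.09 within those numbered 4 and 5. Pou3f4 itself read 7.66 ± 0.32 in mutants and 7.76 ± 0.14 in controls (SD, n = 5 each). Epha2 read higher than every control in 4 of the 5 mutants, with a difference of 0.15 ± 0.07 (SE), and Epha3 in 3 of the 5, with 0.13 ± 0.08 (SE). Epha2 missed an unadjusted p of 0.05 in the main comparison, and its limma adjusted p was 0.628. The other EphA receptors apart from Epha5, namely Epha1, Epha6, Epha7, Epha8 and Epha10, had differences between -0.07 and 0.09.

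EphB receptors had negative differences in 3 of 4. Ephb3, Ephb4 and Ephb6 had log2 differences of -0.10 ± 0.10, -0.12 ± 0.11 and -0.12 ± 0.07 (SE). That of Ephb3 was -0.0459 without mutant 5, 0.0521 within the arrays numbered 1 to 3 and -0.33 within those numbered 4 and 5. Ephb4, the venous partner of ephrin B2, had a log2 signal of 10.39, 10.40, 10.14, 10.23 and 9.80 in mutants 1 to 5, against 10.19, 10.51, 10.16, 10.40 and 10.31 in controls 1 to 5. Mutant 5 was far the lowest, and without it the Ephb4 difference was -0.03. Endothelial markers were also low in this array. Their summed linear signal was 3130 in mutant 5, 3737 to 4438 in the other mutants and 3424 to 3902 in controls. All 8 were above background in every group. Over all arrays 5 of the 8 were higher in mutants and 3 lower, with a median log2 difference of 0.12. The sums of the cartilage (4937), muscle (9108), macrophage (649) and periotic mesenchyme markers (16410) were lowest in mutant 5 too. Those of the neuron and the hindbrain and neural tube markers were highest there. The part of tissue makeup in the Ephb4 and Plxnd1 values was not tested.

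Mutant 5 set the extremes of the gene set. It was the highest of the 10 arrays for 15 members (23.1%) and the lowest for 20 (30.8%), so that 53.8% of the members had their extreme there, compared with 31.4% of all genes. The members highest in mutant 5 were Sema4a, Sema4b, Sema5b, Sema6c, Sema6d, Sema7a, Plxna2, Plxnc1, Slit1, Robo2, Robo3, Ntn1, Ntn4, Epha5 and Ephb1. The members lowest there included Sema3a, Sema3c, Sema3f, Plxnb2, Plxnd1, Nrp1, Ntn3, Efnb1, Efnb2, Ephb3 and Ephb4.

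**Figure D3:**
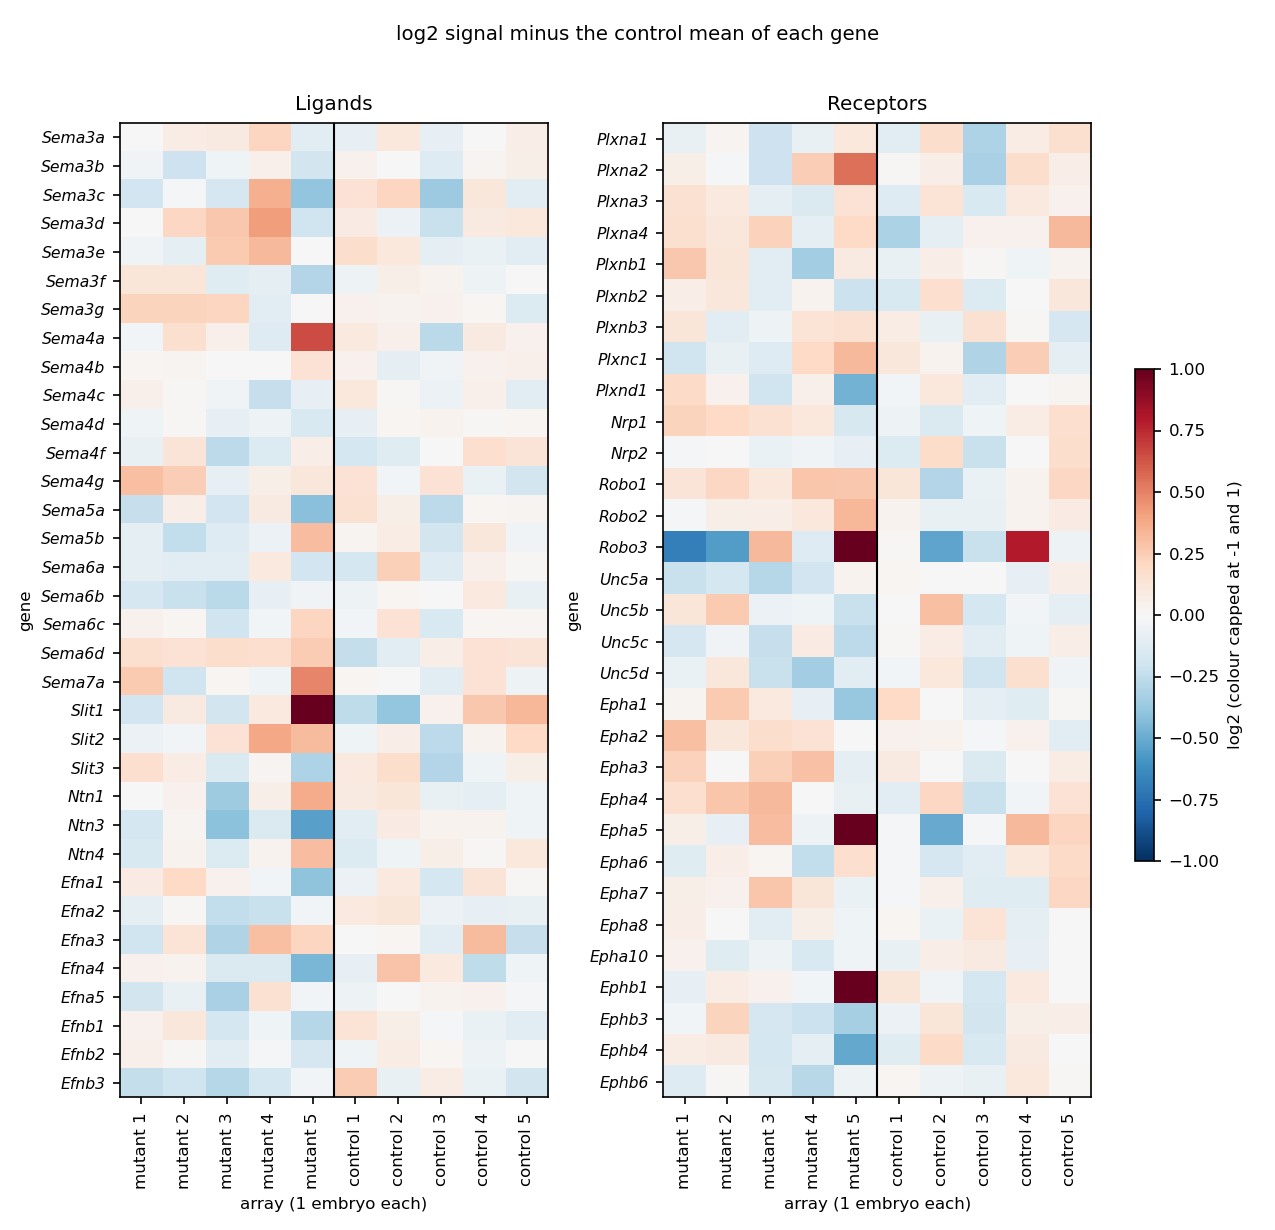
Log2 signal minus the mean of the 5 controls for each of the 65 genes (rows, 34 ligands at left and 31 receptors at right) in each embryo (columns, 5 mutants left of 5 controls), with the colour capped at -1 and 1. The mutant 5 column holds the deepest red cells, those of Slit1, Robo3, Epha5 and Ephb1, and no row changes colour as a whole between mutants and controls.

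Slit1, Robo3, Epha5 and Ephb1 were far higher in mutant 5 than in the other mutants. Slit1, a Slit that is prominent in the nervous system, had a log2 signal of 6.26, 6.54, 6.26, 6.55 and 7.95 in mutants 1 to 5, against 6.196, 6.067, 6.491, 6.719 and 6.780 in controls 1 to 5. Robo3, a divergent Robo of hindbrain and spinal commissural neurons, read 5.26, 5.38, 6.27, 5.81 and 7.56 in mutants 1 to 5, against 5.95, 5.41, 5.72, 6.74 and 5.89 in controls 1 to 5. Control 4 was the highest control for Robo3 and for Epha5, and the second highest for Slit1. Epha5, an ephrin-A receptor of developing neurons, read 6.99, 6.85, 7.23, 6.88 and 8.40 in mutants 1 to 5, against 6.91, 6.42, 6.91, 7.25 and 7.14 in controls 1 to 5. Ephb1, an ephrin-B receptor with a known role at the optic chiasm, read 7.44, 7.59, 7.56, 7.49 and 8.71 in mutants 1 to 5, against 7.64, 7.48, 7.34, 7.62 and 7.51 in controls 1 to 5. The excess of mutant 5 over the mean of the other mutants was 1.55 for Slit1, 1.88 for Robo3, 1.41 for Epha5 and 1.18 for Ephb1 on the log2 scale. A second Ephb1 probe set of lower signal did not share it, with 5.50 in mutant 5 and 4.94 to 5.54 in the other mutants.

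The group differences of these 4 genes changed when that embryo was left out. With all arrays they were 0.26 ± 0.28 for Slit1, 0.11 ± 0.37 for Robo3, 0.34 ± 0.26 for Epha5 and 0.24 ± 0.20 for Ephb1 (SE). Without mutant 5 they were -0.05, -0.26, 0.06 and 0.00150. Within the arrays numbered 1 to 3, which also lack mutant 5, the Epha5 difference was 0.27. Most neural markers were highest in the same embryo. The summed linear signal of the 11 measured hindbrain and neural tube markers was 6970 in mutant 5, 2067 to 3006 in the other mutants and 1441 to 3036 in controls, with 10 of the 11 highest in mutant 5. That of the 14 neuron markers was 22994 in mutant 5, 10025 to 14317 in the other mutants and 7249 to 14017 in controls, with 9 of the 14 highest in mutant 5. The exceptions were Neurod1, Isl1, Pou4f1, Nefl and Nefm. Isl1 read 8.69 in mutant 5 and 9.35 in mutant 1, its highest array. In both lists 0 markers stayed at or below background on all arrays. The median log2 difference of the hindbrain and neural tube markers was 0.27, and -0.10 without mutant 5. The periotic mesenchyme markers stood at 16410 in mutant 5, 19342 to 22323 in the other mutants and 18843 to 23172 in controls. The part of tissue makeup in the guidance gene values was not tested.

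**Figure D4:**
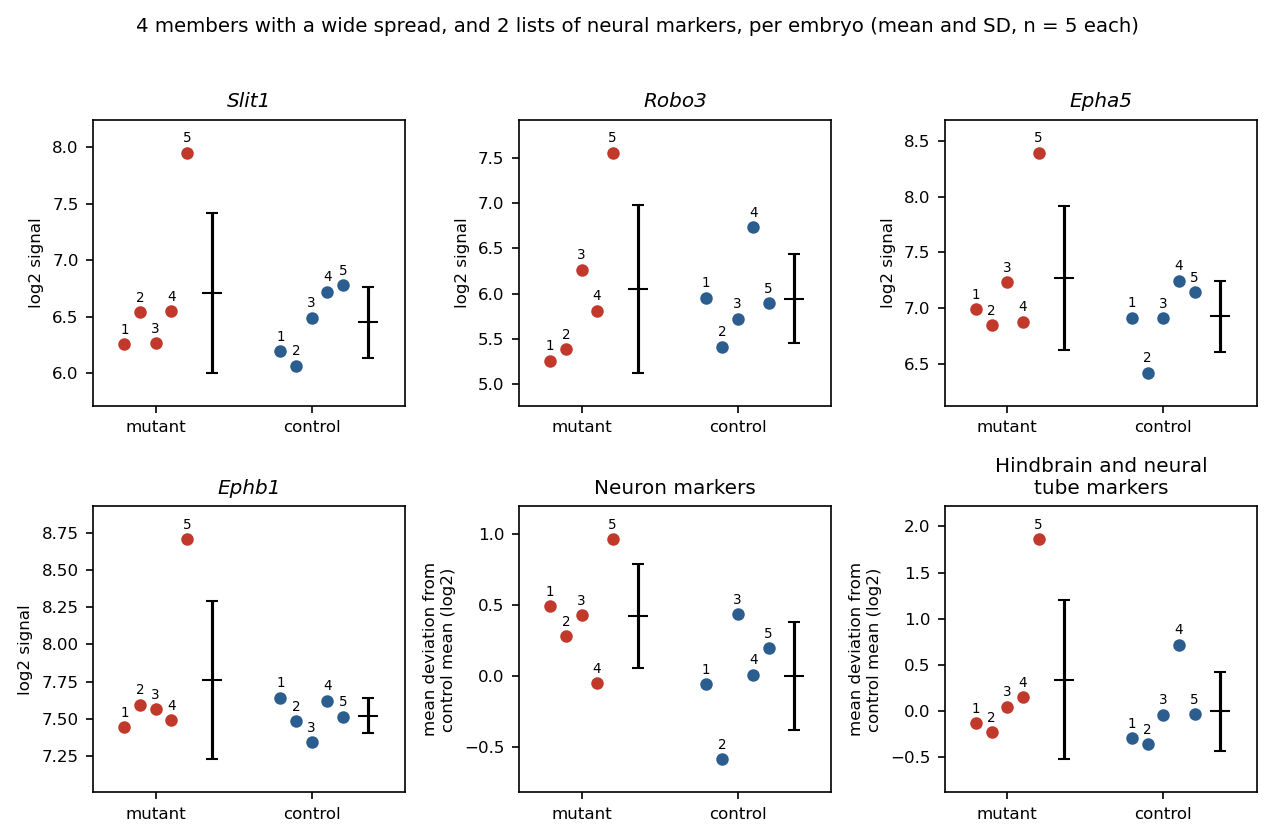
Log2 signal (y axis) of Slit1, Robo3, Epha5 and Ephb1, and the mean log2 deviation from the control mean of the neuron and the hindbrain and neural tube markers, in each embryo, 5 mutants (red) left of 5 controls (blue), with the array number above each point and the group mean with its SD in black. Mutant 5 is the highest point in all 6 panels, and the other 4 mutants lie at or near the range of the controls.

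Without mutant 5 limma again called 0 of 65 members (background 0.01%). At an unadjusted p under 0.05 there were then 7 members (10.8%, against 7.41% of all genes, 4.96% higher and 2.45% lower), with Sema3d, Nrp1, Epha2 and Epha3 higher in mutants and Sema6b, Unc5a and Efnb3 lower. The groups without that embryo did not overlap for 3 members, Epha2 above the controls and Sema6b and Unc5a below them, or 4.62% against 3.08% of all genes (2.22% higher and 0.863% lower). Robo1 and Sema6d kept positive differences of 0.18 and 0.16 without mutant 5, and Ntn3 a negative one of -0.18.

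Genes that act with these families were read from lists outside the set. Of the 23 measured further ligands and receptors of the pathways 11 were higher and 12 lower in mutants, with a median log2 difference of -0.01, and 0 were called by limma over all probe sets. At an unadjusted p under 0.05 there were 2, Ntn5, a netrin-like gene (-0.20 ± 0.07, SE), and Kdr, a receptor for vascular growth factor (0.19 ± 0.08, SE). That is 8.7% of the list, close to the 7.82% of all genes. Of 43 cytoplasmic effectors 35 were higher and 8 lower, with a median log2 difference of 0.08 (0.07 without mutant 5), and 0 were called. The neuron markers were likewise higher in all 14 of 14 genes, with a median of 0.43, or 0.27 without mutant 5. Of these markers 5 were at a limma unadjusted p under 0.05 (35.7%, against 7.82% of all genes). Their part in the effector values was not tested. Dpysl2 and Rock1 were the 2 effectors at an unadjusted p under 0.05, or 4.65% of the list, against 7.82% of all genes. Dpysl2, a collapsin response mediator protein downstream of semaphorins, read 12.21 ± 0.23 in mutants and 11.89 ± 0.07 in controls (SD, n = 5 each). Its limma adjusted p was 0.569. Rock1, a kinase that acts on the actin cytoskeleton, read 9.15 ± 0.10 in mutants and 8.92 ± 0.14 in controls (SD, n = 5 each), and its limma adjusted p was also 0.569. Pak2, a kinase regulated by Rac and Cdc42 and named here after its values were seen, was the 1 effector of 43 whose groups did not overlap (2.33%, near the 1.83% of all genes), at 10.05 to 10.10 in mutants and 9.94 to 10.02 in controls, with a limma adjusted p of 0.624.

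The promoters of members described above are shown for the genes with the smallest p-value in each direction and for genes that were high together in mutant 5, where RefSeq sequence was at hand. Each line gives the 250 bases before the gene start in the direction of the gene, from RefSeq with build GRCm38.p6. Capitals mark E-boxes, CANNTG on either strand, the site of basic helix-loop-helix factors.
Robo1 (chr16:72662899-72663148, plus strand): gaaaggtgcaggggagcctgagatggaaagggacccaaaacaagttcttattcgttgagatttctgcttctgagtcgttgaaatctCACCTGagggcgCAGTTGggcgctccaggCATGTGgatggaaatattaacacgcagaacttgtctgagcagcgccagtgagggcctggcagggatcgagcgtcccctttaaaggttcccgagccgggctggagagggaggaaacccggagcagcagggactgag
Ntn3 (chr17:24209388-24209637, minus strand): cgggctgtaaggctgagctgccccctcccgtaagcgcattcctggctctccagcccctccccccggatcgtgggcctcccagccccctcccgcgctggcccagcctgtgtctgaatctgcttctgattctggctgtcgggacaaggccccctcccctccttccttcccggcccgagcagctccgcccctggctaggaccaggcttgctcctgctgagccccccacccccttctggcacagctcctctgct
Epha5 (chr5:84417383-84417632, minus strand): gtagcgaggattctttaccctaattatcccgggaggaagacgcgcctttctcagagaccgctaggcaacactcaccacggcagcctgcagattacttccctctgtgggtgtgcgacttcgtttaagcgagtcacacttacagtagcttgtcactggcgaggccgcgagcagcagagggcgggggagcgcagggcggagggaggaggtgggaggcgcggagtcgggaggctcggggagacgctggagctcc
Ephb1 (chr9:102354694-102354943, minus strand): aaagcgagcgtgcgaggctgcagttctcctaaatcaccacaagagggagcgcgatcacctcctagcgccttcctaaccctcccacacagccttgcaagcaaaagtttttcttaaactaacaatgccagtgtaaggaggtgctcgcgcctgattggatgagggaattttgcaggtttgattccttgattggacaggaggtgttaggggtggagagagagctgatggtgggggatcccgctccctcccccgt
Robo3 (chr9:37433176-37433425, minus strand): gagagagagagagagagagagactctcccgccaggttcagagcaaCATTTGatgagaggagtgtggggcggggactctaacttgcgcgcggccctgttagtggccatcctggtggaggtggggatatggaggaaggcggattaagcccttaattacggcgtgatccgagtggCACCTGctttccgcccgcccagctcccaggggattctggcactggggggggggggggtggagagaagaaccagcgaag
The Robo1 window held 3 E-boxes and the Robo3 window 2, while the letters did not occur in those of Ntn3, Epha5 and Ephb1. The T-box half-site AGGTGTGA, searched on both strands, occurred in 0 of the 72 windows of the 56 members with sequence and in 1.12% of all 32851 windows of that length. E-boxes were present in 45.8% of the member windows and in 66.2% of all windows, and the median GC content was 64.4% in member windows and 52.4% in all windows. These counts describe letters in a window and say nothing of binding.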

How the data were processed

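Each of 10 embryos was measured on 1 Affymetrix Mouse Gene ST 1.0 array. The values deposited by the authors are log2 signals from RMA. Per the submitters' processing notes the program was Expression Console 1.1. RMA corrects background, equalises the distributions of the arrays and summarises probes, so a shift of most genes one way would be removed. The version of the probe file was not given in the labels or headers. Array medians were 6.19 to 6.27. Arrays have no read depth, so their number sets the precision.

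Of 35557 probe sets the platform annotation listed 23410, of which 21789 had 1 symbol and 21698 of these matched RefSeq by gene ID. A gene was read from its probe set of highest mean, which gave 19938 genes. The fit used limma 3.58.1 in R 4.3.3 (lmFit, then eBayes with trend). Its two-sided p-values were adjusted by Benjamini-Hochberg across the 21789 probe sets, and 0.05 was the threshold. The fit was also run on simulated data with planted differences and independent normal noise. Those data held no outlying array and no split between sets of arrays, so that run does not cover such features. Single genes also had an exact two-sided permutation test over 252 splits of the arrays, which cannot give a p below 0.00794 and is not adjusted for the number of genes. Families and lists have counts and medians, without a test.

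The rule for named genes took members at an unadjusted p under 0.05, the largest difference in each family, and genes with described roles in the ear or its nerve. Robo3, Epha2, Epha3, Ephb4, Dcc and Pak2 were added after their values were seen, as was the choice of promoters and motifs. The members and lists were chosen with earlier results of these data known.

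Replicate numbers entered as a block in an alternative fit only, and the main fit, with its intervals and p-values, left them out. The block was tried because every same-number pair had deviations from its group means that correlated above 0.1 (0.110 to 0.236). Pairs of other numbers ran from -0.382 to 0.385, so some correlated more closely than any same-number pair. The best match had the same number in 3 cases but not in all, so these values do not settle whether the arrays are paired. What arrays of a number share is not stated in the labels. By Xist and Y-linked probe sets 1 mutant and 2 controls were male. Alternatives covered the scaling, the moderation, the filter, the choice of probe set, sex, array weights, the replicate block and subsets of arrays. Ephb2 was not analysed here.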

Additional observations from a re-analysis of the deposited data

Results flagged for a closer look

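Among 130 groups of 5 values, 8 held an array far from the others by Dixon's ratio of gap to range (critical value 0.71), where chance gives about 6.5. Of these 5 lay in mutant 5, as its highest value within the mutants. They were Ephb1 (8.706), Slit1 (7.952), Epha5 (8.396), Sema4b (7.974) and Sema6d (8.587). For Sema6d and Sema4b the other mutants lay close together. The others lay in controls, with control 5 lowest for Sema3g (6.763), control 3 lowest for Sema4a (6.636) and control 1 lowest for Sema4d (7.358). Robo3, which was also highest in mutant 5, did not reach the critical value.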

How the results depend on the processing

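Under all 21 alternatives 0 members were called, with a lowest limma adjusted p of 0.404 (Ntn3, replicate block), and the block changed the call of no member. Members at an unadjusted p under 0.05 numbered 3 with the replicate block (4.62%, against 9.74% of all genes), 3 with sex as a term (7.4% of all genes), 9 in arrays 1 to 3 alone (6.16%) and 1 in arrays 4 and 5 alone (4.05%). They ranged from 1 to 7 when single arrays were left out (5.35 to 8.67% of all genes), with 2 without mutant 1, mutant 2 or control 3, 1 without mutant 3 or control 2, and 3 without control 1. Members whose groups did not overlap numbered 1 (Sema6d) with median centring (1.66% of all genes). There were 9 in arrays 1 to 3 (12.2% of all genes) and 19 in arrays 4 and 5 (35.2%), where fewer arrays make separation easier. When single arrays were left out there were 0 to 3 (2.29 to 3.71% of all genes).

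In arrays 1 to 3 the family medians were 0.15 for neuropilins and 0.0330 for EphB receptors, and that of netrins turned to -0.15. The netrin median was also negative without mutant 5 (-0.0614), without control 1 (-0.0163), with array weights (-0.0295) and with sex as a term (-0.00212). In arrays 4 and 5 they were -0.15 for neuropilins, -0.28 for EphB receptors, 0.0211 for semaphorins of classes 4 to 7, -0.10 for plexins and -0.0156 for EphA receptors. Among the genes named by rule, signs turned in arrays 1 to 3 for Sema3e (-0.0179), Sema3f (0.0258), Nrp2 (0.0293) and Ntn1 (-0.15), and in arrays 4 and 5 for Efnb3 (0.0206), Nrp1 (-0.15), Unc5b (-0.0670), Epha4 (-0.0940) and Efna5 (0.0514). Further quantile normalization gave Unc5b -0.00280. Leaving out single arrays gave -0.0481 to 0.38 for Slit1, -0.0965 to 0.00752 for Sema3f, -0.0983 to 0.00289 for Nrp2, -0.0614 to 0.12 for Ntn1 and -0.0498 to 0.0889 for Unc5b. The cause was not tested.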
